A study of Solanum lycopersicum with 6 samples.

Results

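The genes described here are 10 loci of the gibberellin pathway in tomato roots. They comprise the synthesis genes GA20ox1 (Solyc03g006880), GA20ox2 (Solyc06g035530) and GA20ox3 (Solyc11g072310), 3 GA2ox inactivation genes (Solyc05g053340, Solyc07g056670 and Solyc01g079200), 3 GID1 receptor genes (Solyc01g098390, Solyc09g074270 and Solyc06g008870) and the DELLA gene PROCERA (Solyc11g011260). They were chosen by locus identifier from a table of 34688 ITAG4.1 gene models, and all 10 were found in it. The data are bulk 3′-end RNA-seq libraries, 3 of protoplasted roots and 3 of whole roots, each made from 50 to 100 pooled primary roots of 7-day-old wild-type seedlings of cultivar M82 cut about 3 cm from the tip. Protoplasts are cells whose walls were digested, here for 2 h at 25 °C with cellulases, macerozyme and pectolyase in a mannitol solution, and then strained and pelleted. Whole roots had no treatment by their labels, which name no mock incubation, so wall digestion, incubation and cell recovery cannot be told apart. The comparison asked which transcripts change when root tissue is turned into protoplasts.

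Gibberellins are plant hormones that promote cell elongation and growth. GA20ox enzymes carry out late steps that lead to the active hormones, whereas GA2ox enzymes convert gibberellins into inactive forms. The hormone is perceived by GID1, a soluble receptor that, once bound to it, associates with DELLA proteins and marks them for degradation. DELLA proteins restrain gibberellin responses, and tomato plants that lack PROCERA function grow as if the hormone were always present. In many plants active gibberellin lowers the transcripts of GA20ox genes and raises those of GA2ox genes.

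Protoplasted libraries held between 5198513 and 5666102 estimated counts and whole-root libraries between 5662566 and 5790082. The authors deposited these counts without normalization. Levels are given below as CPM, read counts scaled to a common library total, after TMM scaling, which corrects for library size and composition. Reads came from transcript ends and were not divided by length. The level of each gene was compared between groups, and levels of different genes were not tested against each other. Sums and count shares over several loci are also given, and they too are compared between groups. Differences are log2 fold changes, protoplasted over whole, from edgeR's quasi-likelihood test over 15966 genes with Benjamini-Hochberg adjustment, and a gene was called at an adjusted p under 0.05. The labels do not tell whether libraries came from separate batches of plants, so p-values may measure only technical spread between them. A count of 0 allows a level of at most 0.529 to 0.577 CPM of the library total in protoplasted and 0.518 to 0.530 CPM in whole libraries (3 counts), which covers counting error only.

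In protoplasts a GA2ox inactivation gene was higher and 2 of the 3 GID1 receptor genes were lower, while the only GA20ox gene tested and the DELLA gene did not pass the threshold. The count of lower GID1 genes was 1 in 4 of the 6 fits that left out a library. These were the fits without protoplasted replicate 1, protoplasted replicate 2, whole replicate 2 or whole replicate 3. In them Solyc06g008870 lost its call (adjusted p of 0.0611 to 0.0937 in edgeR's quasi-likelihood test). The fits that left out a library had no block for replicate number. With that block and all libraries, the adjusted p of Solyc06g008870 was 0.000359 in the same test. The block was taken up from deviations in these same data, so this value is no separate support for the call. The GA2ox gene Solyc01g079200 was 6.06 times as abundant in protoplasted as in whole roots. The GID1 genes Solyc01g098390 and Solyc06g008870 stood at 0.466 and 0.435 times their whole-root level. Of the 10 loci, 6 had enough counts to be tested, of which 1 was higher, 2 were lower and 3 were not called. Among all genes tested, 17% were higher and 18.7% lower by the same rule, or 35.7% in either direction, and nothing particular to the 6 loci is read from their count of 3 called. The median log2 fold change of the 6 was 0.24, against 0.02 for all genes tested.

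**Figure D1:**
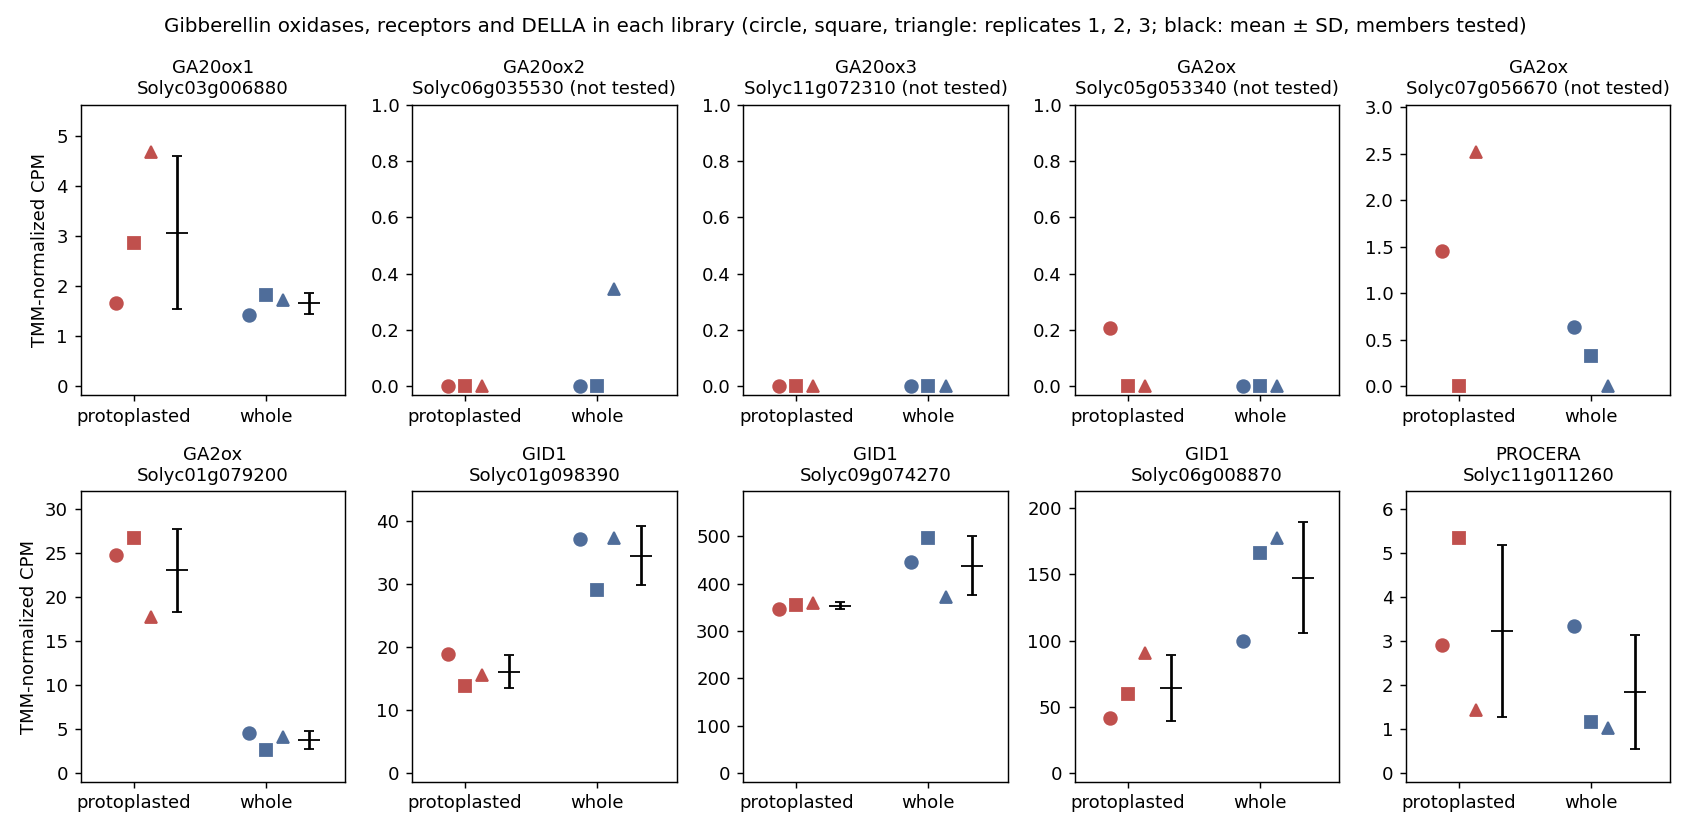
TMM-normalized CPM (vertical axis, from 0 in each panel) of the 10 loci in the 3 protoplasted (red) and 3 whole-root (blue) libraries, with the mean and SD in black for the loci tested. Solyc01g079200 sits between 17.7 and 26.6 CPM in protoplasted libraries, above 2.65 to 4.61 CPM in whole roots, and the 3 GID1 loci sit below their whole-root values.

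The GA20ox synthesis genes had few counts in either group. GA20ox1 (Solyc03g006880), the only member of its class with enough counts for a test, had 8, 14 and 26 counts in protoplasted replicates 1, 2 and 3 and 9, 11 and 10 counts in whole replicates 1, 2 and 3. The corresponding levels averaged 3.07 ± 1.52 CPM in protoplasted and 1.66 ± 0.204 CPM in whole roots (SD, n = 3 each). Protoplasted replicate 1 lay inside the whole-root range and the other protoplasted libraries above it, so the groups overlapped. The log2 fold change was 0.89 (standard error 0.50, 95% interval -0.26 to 2.04) with an adjusted p of 0.2 in edgeR's quasi-likelihood test, so no change was called. Set against the whole library of the same number, GA20ox1 was 1.16, 1.57 and 2.72 times as high in protoplasted replicates 1, 2 and 3, above 1 in each. Its log2 fold change was 0.41 without protoplasted replicate 3 and reached 1.17 without protoplasted replicate 1, with no call in either fit.

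GA20ox2 (Solyc06g035530) and GA20ox3 (Solyc11g072310) encode enzymes of the same step. GA20ox2 had no count in any protoplasted library and 0, 0 and 2 counts in whole replicates 1, 2 and 3. GA20ox3 had no count in any of the 6 libraries. Both groups were thus at or under the floor of 3 counts per library for these genes, and no fold change is given.

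Of the GA2ox inactivation genes, only Solyc01g079200 had enough counts for a test, and it was higher in protoplasts. Solyc01g079200 had 119, 130 and 98 counts in protoplasted replicates 1, 2 and 3 and 29, 16 and 24 counts in whole replicates 1, 2 and 3. These were 24.7, 26.6 and 17.7 CPM in protoplasted libraries, against 4.61, 2.65 and 4.13 CPM in whole-root libraries. The lowest protoplasted library lay well above the highest whole-root library, and the groups did not overlap, which also held for 50.7% of all genes tested. Solyc01g079200 averaged 23.0 ± 4.73 CPM in protoplasted and 3.80 ± 1.02 CPM in whole roots (SD, n = 3 each), a log2 fold change of 2.59 with a 95% interval of 1.85 to 3.33 (standard error 0.33, adjusted p = 0.000944 in edgeR's quasi-likelihood test). A log2 fold change over 2 with an adjusted p under 0.05 is the rule by which the study selects protoplast-induced genes, and 4.15% of all genes tested passed it here, Solyc01g079200 among them. Its log2 fold change lay at the 97.6th percentile of all genes tested.

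The rise of Solyc01g079200 appeared in each pair of same-numbered libraries, with 5.37, 10.0 and 4.28 times the whole-root CPM in replicates 1, 2 and 3. The largest ratio came with whole replicate 2, the library with the lowest level of this gene. With any one library left out, the log2 fold change ranged from 2.38 to 2.75 and the adjusted p from 0.00153 to 0.00895 in edgeR's quasi-likelihood test. The rise was therefore past both thresholds in each of these fits.

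The other GA2ox genes gave no test. Solyc07g056670 had 7, 0 and 14 counts in protoplasted replicates 1, 2 and 3 and 4, 2 and 0 counts in whole replicates 1, 2 and 3, so the groups overlapped and protoplasted replicate 2 and whole replicate 3 had none. It was removed by the filter on low counts, and without that filter its log2 fold change was 1.96 with an adjusted p of 0.26 in edgeR's quasi-likelihood test. Solyc05g053340 had 1 count in protoplasted replicate 1 and none in the other libraries, at or under the floor in both groups. Summed over the 3 GA2ox loci, the level was 24.4 ± 3.65 CPM in protoplasted and 4.12 ± 1.13 CPM in whole roots (SD, n = 3 each), a sum made up mostly of Solyc01g079200. For the 3 GA20ox loci the sum was 3.07 ± 1.52 CPM in protoplasted and 1.77 ± 0.320 CPM in whole roots (SD, n = 3 each), with overlapping libraries.

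The GID1 receptor genes were the only class with all 3 loci tested. Solyc01g098390 had 91, 67 and 86 counts in protoplasted replicates 1, 2 and 3 and 233, 175 and 216 counts in whole replicates 1, 2 and 3. These counts were 18.9, 13.7 and 15.5 CPM in protoplasted libraries, against 37.0, 29.0 and 37.2 CPM in whole-root libraries. The groups did not overlap, and the spread within each was narrow. Solyc01g098390 averaged 16.1 ± 2.64 CPM in protoplasted and 34.4 ± 4.66 CPM in whole roots (SD, n = 3 each), a log2 fold change of -1.10 with a 95% interval of -1.64 to -0.56 (standard error 0.24, adjusted p = 0.00808 in edgeR's quasi-likelihood test). Its ratios within replicate numbers were close to each other, at 0.511, 0.473 and 0.417 in replicates 1, 2 and 3. With any one library left out, its log2 fold change ranged from -1.25 to -1.03 and its adjusted p from 0.0122 to 0.0379, so the call was kept.

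Solyc06g008870 had 202, 292 and 505 counts in protoplasted replicates 1, 2 and 3 and 626, 1003 and 1030 counts in whole replicates 1, 2 and 3. Its levels were 42.0, 59.8 and 91.1 CPM in protoplasted libraries, against 99.5, 166 and 177 CPM in whole-root libraries. The groups did not overlap, but protoplasted replicate 3 came close to whole replicate 1, and in both groups replicate 1 was the lowest and replicate 3 the highest library. It averaged 64.3 ± 24.8 CPM in protoplasted and 148 ± 42.1 CPM in whole roots (SD, n = 3 each), a log2 fold change of -1.20 with a 95% interval of -1.96 to -0.44 (standard error 0.34, adjusted p = 0.0237 in edgeR's quasi-likelihood test). Within replicate numbers the ratio was 0.422, 0.360 and 0.514 in replicates 1, 2 and 3. The call was lost without protoplasted replicate 1 (adjusted p = 0.0631), protoplasted replicate 2 (0.0937), whole replicate 2 (0.0774) or whole replicate 3 (0.0611) in edgeR's quasi-likelihood test, with log2 fold changes between -1.17 and -0.98 in these fits. With the replicate number as a block, a pairing taken from these same data, the adjusted p was 0.000359 in the same test.

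Solyc09g074270 had 1664, 1728 and 1997 counts in protoplasted replicates 1, 2 and 3 and 2810, 2988 and 2162 counts in whole replicates 1, 2 and 3. These were 346, 354 and 360 CPM in protoplasted libraries, against 447, 496 and 372 CPM in whole-root libraries. All protoplasted libraries lay below all whole-root libraries, as they did for 25.6% of genes tested, although whole replicate 3 was close to the protoplasted range. The gene averaged 353 ± 7.10 CPM in protoplasted and 438 ± 62.3 CPM in whole roots (SD, n = 3 each). Its log2 fold change was -0.31, with a 95% interval of -0.74 to 0.12, and did not pass the threshold (standard error 0.19 and adjusted p = 0.234 in edgeR's quasi-likelihood test). Whether the 3 GID1 loci differ from each other in their change was not tested.

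**Figure D2:**
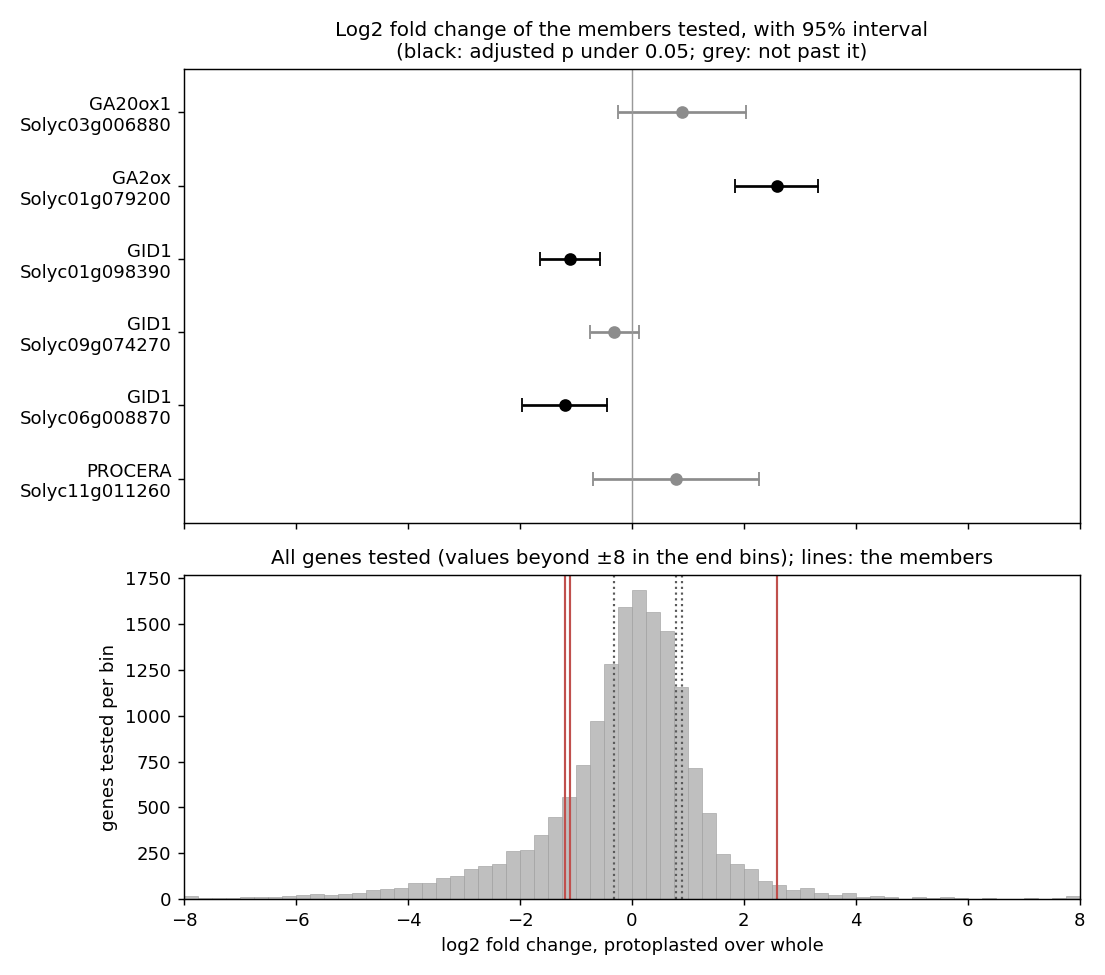
Upper panel, log2 fold change (horizontal axis, protoplasted over whole) of the 6 loci tested, with 95% intervals, black where the adjusted p was under 0.05. Lower panel, number of genes per bin of log2 fold change over all 15966 genes tested, with the loci as lines (solid red where called, dotted where not): Solyc01g079200 at 2.59 stands in the upper tail, and the called GID1 loci at -1.10 and -1.20 stand in the broader lower flank.

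The makeup of the GID1 counts is given as a description, with no test. The shares within a library depend on each other, so a higher share of a locus goes with a lower summed share of the others. Among the counts of the 3 GID1 loci, Solyc09g074270 took 85.0%, 82.8% and 77.2% in protoplasted replicates 1, 2 and 3 and 76.6%, 71.7% and 63.4% in whole replicates 1, 2 and 3. The lowest protoplasted share was just above the highest whole-root share, and the exact 95% binomial intervals of those libraries overlapped, at 75.5% to 78.8% in protoplasted replicate 3 and 75.2% to 78.0% in whole replicate 1. Within each replicate number the share was higher in the protoplasted library. Solyc06g008870 took 14.6% ± 4.63 of these counts in protoplasted and 23.8% ± 6.59 in whole roots (SD, n = 3 each), and Solyc01g098390 took 3.73% ± 0.801 in protoplasted and 5.63% ± 1.24 in whole roots (SD, n = 3 each). The libraries of the groups overlapped for both of these shares. Summed over the 3 loci, GID1 transcripts stood at 407, 428 and 467 CPM in protoplasted replicates 1, 2 and 3 and at 583, 691 and 586 CPM in whole replicates 1, 2 and 3, a ratio of 0.699 between the means. All protoplasted sums lay below all whole-root sums, an order that 25.6% of single genes tested also had. Most of each sum was Solyc09g074270, which was not called.

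**Figure D3:**
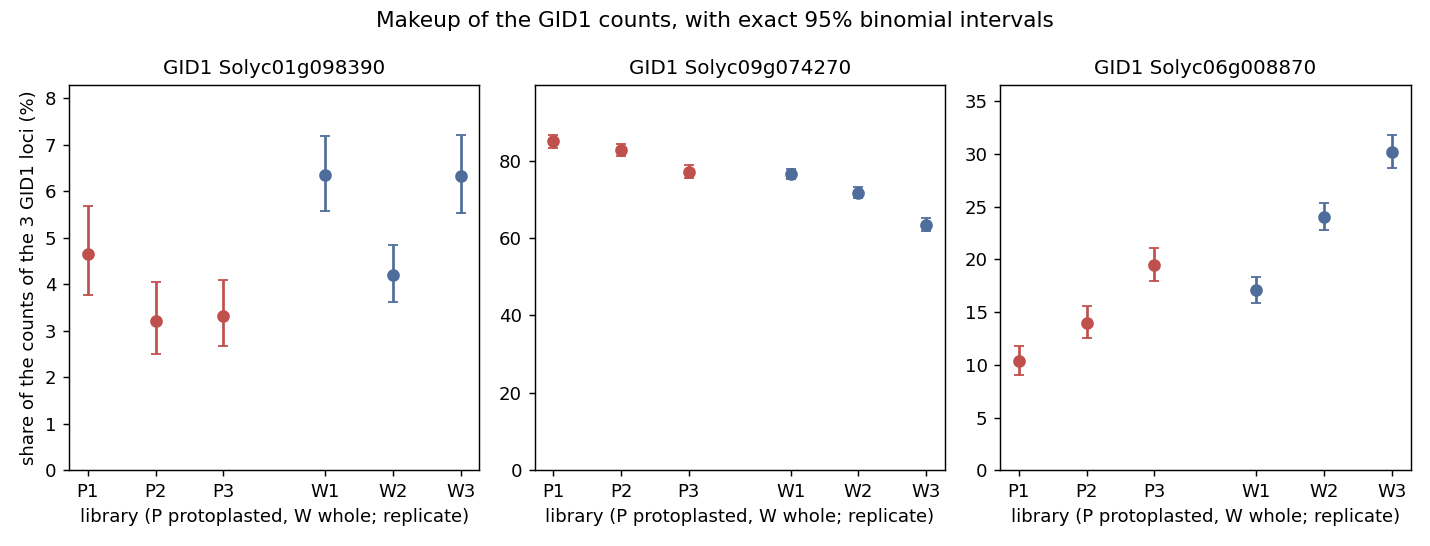
Share of the counts of the 3 GID1 loci (vertical axis, percent, each panel from 0) that fell on each locus in the 3 protoplasted (P, red) and 3 whole-root (W, blue) libraries, with exact 95% binomial intervals for counting error. The share of Solyc09g074270 runs from 77.2% to 85.0% in protoplasted and from 63.4% to 76.6% in whole-root libraries, while the shares of the other loci are lower in the protoplasted library of each replicate number.

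PROCERA (Solyc11g011260), which encodes the DELLA repressor, had 14, 26 and 8 counts in protoplasted replicates 1, 2 and 3 and 21, 7 and 6 counts in whole replicates 1, 2 and 3. The groups overlapped widely, since whole replicate 1 exceeded protoplasted replicates 1 and 3. It averaged 3.23 ± 1.96 CPM in protoplasted and 1.84 ± 1.30 CPM in whole roots (SD, n = 3 each). The log2 fold change of 0.78 had a standard error of 0.65 and a 95% interval of -0.70 to 2.26, with an adjusted p of 0.379 in edgeR's quasi-likelihood test. Within replicate numbers the ratio was 0.872, 4.59 and 1.40, so the direction was not shared. Leaving out single libraries moved the log2 fold change between 0.18 (without protoplasted replicate 2) and 1.52 (without whole replicate 1), so these counts do not fix the size or direction of any change in PROCERA.

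**Figure D4:**
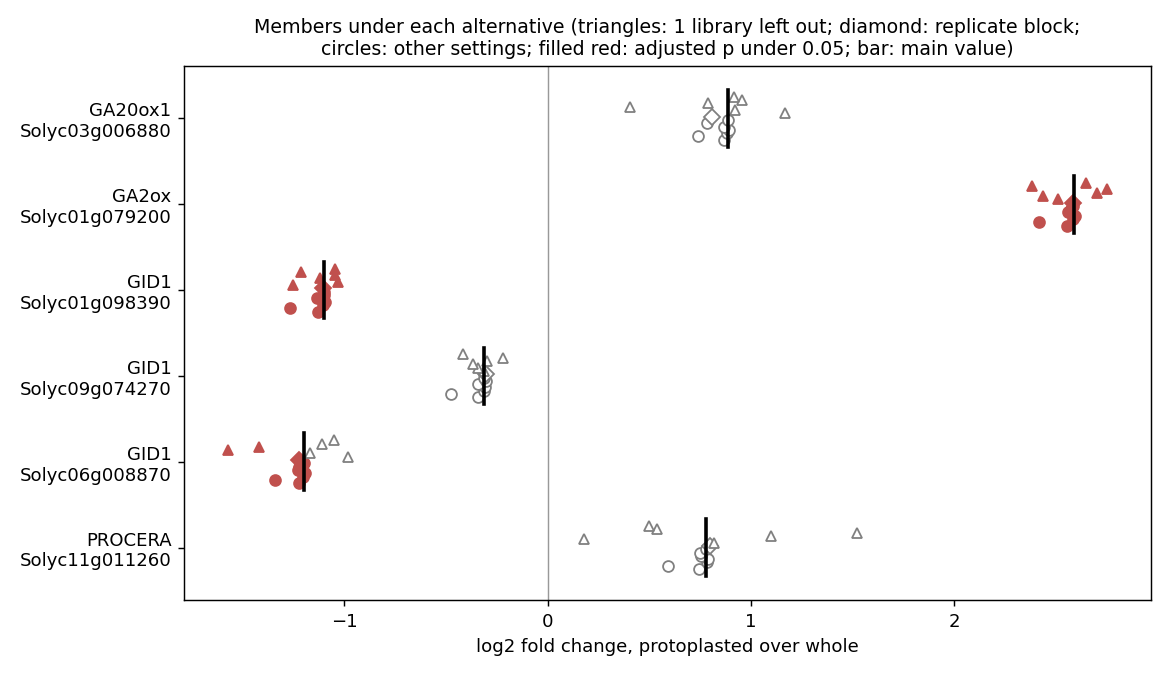
Log2 fold change (horizontal axis, protoplasted over whole) of the 6 loci tested under each of the 14 alternative settings, filled red where the adjusted p was under 0.05, with the main value as a black bar. Solyc01g079200 and Solyc01g098390 are filled throughout, Solyc06g008870 is open in 4 of the fits that leave out a library, and GA20ox1, Solyc09g074270 and PROCERA are open throughout.

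A further 12 loci, listed from general knowledge as other genes of gibberellin synthesis, inactivation and response, were counted beside the members. No table used here gives their names, so they are treated as a list. Of these loci, 11 were in the table and 4 had enough counts for the test, of which 1 was higher, none was lower and 3 were not called by edgeR's quasi-likelihood test. By the same test 17% of all genes tested were higher and 18.7% lower, so nothing particular to these loci is read from this count. At an unadjusted p under 0.05, none of these 4 was lower in that test or in limma-voom. DESeq2, which gave a p-value for 10 of the loci, had 2 lower at an unadjusted p under 0.05 (Solyc06g066820 and Solyc07g061730) and 1 lower at an adjusted p under 0.05 (Solyc06g066820), both outside the 4. Over the 20480 genes to which DESeq2 gave an adjusted p, it called 3324 lower. In replicates 1, 2 and 3, Solyc07g061730 had 1, 0 and 2 protoplasted and 10, 6 and 13 whole-root counts. Without the filter on low counts, its adjusted p was 0.0445 in edgeR's quasi-likelihood test. Solyc02g089350 went the other way, with 9, 11 and 23 protoplasted and 4, 4 and 6 whole-root counts (adjusted p = 0.0581 in that fit). Solyc12g006460, the called locus, had 360, 160 and 190 counts in protoplasted replicates 1, 2 and 3 and 134, 71 and 48 counts in whole replicates 1, 2 and 3, with non-overlapping groups, as for 50.7% of all genes tested. Its log2 fold change was 1.77, with a standard error of 0.44 and an adjusted p of 0.0149 in edgeR's quasi-likelihood test, and the call was lost without protoplasted replicate 1 (adjusted p = 0.052) or whole replicate 2 (0.0594).

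Solyc06g066820, singled out from the same list after its values were seen, had no count in any protoplasted library and 36, 11 and 6 counts in whole replicates 1, 2 and 3. Its mean whole-root level of 2.86 ± 2.51 CPM (SD, n = 3) was 4.82 times the floor of 3 counts per protoplasted library, which averaged 0.593 CPM after TMM scaling. Without whole replicate 1, which held most of its counts, the mean was 2.41 times that floor. These ratios allow for counting error in protoplasted libraries only and not for spread between whole libraries, of which replicate 3 stood at 1.03 CPM. The filter on low counts removed it, and it was called lower without that filter (adjusted p = 0.00358 in edgeR's quasi-likelihood test). The median log2 fold change of the 4 loci tested was -0.07, against 0.02 for all genes tested.

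Markers of the exodermis, the outer suberized cell layer of the tomato root, were lower in the same protoplasted libraries. In bulk samples, fewer cells of a type and less RNA per cell cannot be told apart. Of 13 suberin enzymes and regulators that the study places in the exodermis or uses as candidates for it, 12 were in the table, 11 were tested and all 11 were lower in protoplasts. By the same test 18.7% of all genes tested were lower. The log2 fold changes of the 11 ran from -7.42 (SlGPAT5) to -1.84 (SlMYB41), with a median of -6.07. SlASFT, the feruloyl transferase of suberin, averaged 6.95 ± 7.60 CPM in protoplasted and 698 ± 210 CPM in whole roots (SD, n = 3 each). The summed level of the 12 markers was 13.5, 15.6 and 50.8 CPM in protoplasted replicates 1, 2 and 3 and 1418, 1636 and 2806 CPM in whole replicates 1, 2 and 3. At most 2 of the 12 were at 0 in any library, SlGPAT5 having no count in protoplasted replicates 1 and 2. Replicate 3 was the highest library of each group for this sum, as it was for Solyc06g008870, and replicate 1 the lowest for both. The other GID1 loci did not share this order in both groups. For Solyc01g098390, protoplasted replicate 1 was the highest at 18.9 CPM and whole replicate 2 the lowest at 29.0 CPM. Solyc09g074270 followed the order in protoplasted libraries, but whole replicate 3 was its lowest at 372 CPM. Over all genes tested, deviations from the group means correlated at 0.429, 0.114 and 0.538 between libraries numbered 1, 2 and 3. How many genes have the order of this sum in both groups was not counted. Nothing particular to Solyc06g008870 is therefore read from sharing it. The part of these lower marker levels in the lower GID1 levels was not tested.

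All counts of the 10 loci were whole numbers in all 6 libraries, whereas kallisto gives fractions where it divides reads between similar transcripts.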

How the data were processed

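Bulk RNA-seq of protoplasted and whole tomato roots was used, with 3 libraries per group assigned by labels and column names; no column of other samples was used. According to the submitters' processing notes and the methods, the authors trimmed reads with Trim Galore 0.6.6, counted the first read against ITAG4.1 transcripts by pseudo-alignment (kallisto 0.46.2) and deposited estimated counts per gene model, without normalization. The libraries were QuantSeq 3′ forward libraries. A strand option and molecular identifiers are not given in the sources used here.

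Estimated counts were rounded, filtered with filterByExpr (minimum count 10, minimum total 15), scaled by TMM and tested with edgeR 4.0.16 (R 4.3.3) by the quasi-likelihood test without a block. Intervals are 95% intervals from the test's standard errors. P-values were adjusted over 15966 genes. The alternatives were RLE factors, library size only, no filter, at least 1 CPM in at least 3 libraries, unrounded counts, DESeq2 1.42.0, limma-voom (limma 3.58.1), a replicate block and the omission of each single library. Counts simulated with 200 changed genes, raised and lowered in equal number, and with independent libraries were used to check the fit. That check held far fewer changes than these data and no deviations shared by replicate number, so it does not cover either.

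Members and lists were chosen with earlier results of these data known. All 10 members were named, together with the exodermis marker of highest level. Deviations from the group means correlated at 0.429, 0.114 and 0.538 between libraries of the same number, all over 0.1. The replicate numbers of the labels were therefore taken as pairs for the ratios and for the fit with a replicate block. This choice rests on these same data, so the fit with the block is no separate support for a call. The main test and the fits that left out a library had no block. No source names what the replicate numbers share. All library pairs within a group differed by more than counting noise (lowest chi-square 13.2 per degree of freedom). The gene table of assembly SLM_r2.1 pairs none of its names with these identifiers. Protein, promoter and transcript sequences were not used here.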

Additional observations from a re-analysis of the deposited data

How the results depend on the processing

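Over 14 alternatives, 80 of 84 log2 fold changes of the 6 loci tested kept their direction and their side of the threshold, and none reversed. The other 4 were those of Solyc06g008870 with a library left out. With one library left out, 1 to 2 of the 10 loci were lower and 1 was higher. Solyc01g079200 ranged from 2.38 to 2.75, Solyc01g098390 from -1.27 to -1.03 and Solyc06g008870 from -1.57 to -0.98 on the log2 scale over all alternatives. Over all genes, 1522 to 2747 were higher with a library left out, more than 1.5 times fewer than 2711 without protoplasted replicate 2 (1522) or whole replicate 2 (1726), in fits with fewer samples. Of the exodermis markers, 10 to 11 were lower in these fits, against 2059 to 3082 of all genes. With library size only, all genes had a median log2 fold change of -0.14 and 35.4% of calls were higher, against 47.6% with TMM.

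Among the other gibberellin loci, 2 were lower with no filter, where 3244 of all 24719 genes tested were lower. With at least 1 CPM in 3 libraries, 2 were higher and 2 lower, against 2814 higher and 3110 lower of all 17392 genes. In DESeq2, 1 was lower, against 3324 of 20480 genes. With a library left out, 0 to 1 were higher and 0 to 2 lower, against 1522 to 2747 and 2059 to 3082 of all genes. Nothing particular to these loci is read from these counts. A wider filter tests more loci, and otherwise the cause of the changed counts was not tested.

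With the replicate block, 1 of the 10 loci was higher and 2 were lower, as without it. The block changed no call of a member, with adjusted p-values of 0.00019 for Solyc01g079200, 0.00146 for Solyc01g098390 and 0.000359 for Solyc06g008870. It called 3985 genes higher and 3876 lower, against 2711 and 2981 without it. The filter on low counts removed 4 of the 10 loci. GA20ox1 and PROCERA had at most 26 counts in any library, and the part of depth in their lack of a call was not tested.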
